A study of Homo sapiens with 6 samples.

Results

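NUPR1 and 9 genes of the ATF4 stress response, namely ATF4, DDIT3, TRIB3, ASNS, CHAC1, SESN2, DDIT4, PPP1R15A and ATF3, were looked up by gene name in the table deposited for DU145 cells. NUPR1, DDIT4 and ATF3 had a row, so that 3 of the 10 named genes are described here among 10542 genes in all. Every listed gene had a deposited adjusted p below 0.05, and the other 7 were not analysed here. The 10 genes had been chosen with log2 fold changes of this same contrast known, and from knowledge of the pathway. The values of the 3 genes with a row are therefore given as a description, without a test.

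DU145, a human line long established from prostate cancer, was used throughout. Both groups had received a lentivirus, which carried TFEB in the 3 DU145-TFEB libraries and a blank vector in the 3 DU145-vector libraries. According to the methods the lines were stably transfected, and no untransduced or acute group was part of this comparison. mRNA was sequenced from each, and the question of the comparison was which transcripts differ when TFEB, a transcription factor of lysosomal and autophagy genes, is overexpressed.

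Cells that lack amino acids, misfold proteins in the endoplasmic reticulum or lose mitochondrial function activate kinases that phosphorylate the translation factor eIF2. Bulk translation then falls while ATF4, a bZIP transcription factor, is translated more. ATF4 pairs with C/EBP proteins on C/EBP-ATF elements and raises genes of amino acid supply, tRNA charging and feedback control. Its targets include DDIT3 (CHOP) and ATF3, which are bZIP factors themselves, and TRIB3, a pseudokinase that restrains ATF4. ASNS makes asparagine, CHAC1 degrades glutathione, PPP1R15A brings a phosphatase to eIF2, and SESN2 and DDIT4 (REDD1) lower mTORC1 activity. NUPR1 is a small, largely disordered chromatin protein that stress of many kinds induces, and it is among the genes known to respond to ATF4.

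The deposited values are normalized counts, that is, the reads of a gene divided by 1 size factor per library. Reads on the listed genes ranged from 13999961 to 16511477 per library, and size factors from 0.950 to 1.10. TFEB itself was at 6325, 6301 and 6036 normalized counts with the TFEB lentivirus and at 127, 124 and 125 with the blank vector, as the libraries are labelled. Of 6 epithelial markers, KRT8, KRT18 and KRT19 had a row. Their means moved with the contrast, with KRT8 at 14615 to 20808 in DU145-TFEB and 24614 to 28109 in DU145-vector. For KRT19 the groups overlapped, with DU145-TFEB replicate 2 at 1884 and DU145-vector replicate 2 at 1846. The log2 fold changes of KRT8, KRT18 and KRT19 were -0.68, -0.78 and -0.38, and -1.41, -1.57 and -1.34 with the GC adjustment described below, and their part in the results was not tested. None of the 5 fibroblast and 4 blood cell markers had a row, and these were not analysed here. Every one of the 10542 listed genes had a deposited adjusted p-value below 0.05. With limma and a Benjamini-Hochberg adjusted p below 0.05, 47.6% of the listed genes were called higher and 52.4% lower in DU145-TFEB, so that a call in itself says little on this list. Further, the log2 fold change followed the GC content of the transcripts. When the genes were ordered by GC content and cut into 5 classes of equal size, class 1 being the GC-poorest, the medians of classes 1 to 5 were -1.41, -1.08, -0.42, 0.53 and 0.67. Whether GC content is the cause was not tested, and GC content and group cannot be told apart, since all 3 DU145-TFEB libraries leaned to GC-rich genes and all 3 DU145-vector libraries to GC-poor genes. Relative to the mean of the 6 libraries, GC class 5 exceeded class 1 by 0.701 to 1.36 on the log2 scale in the former, and the same difference was -1.28 to -0.878 in the latter. Log2 fold changes are therefore given also as GC-adjusted values, after the trend against GC content and length had been removed from each library.

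NUPR1 stood out among the 3 genes. Its mRNA was about 8 times as abundant in DU145-TFEB as in DU145-vector cells, whereas DDIT4 and ATF3 were higher by folds of 1.28 and 1.24. The order of DDIT4 and ATF3 in size of change rests on values that lie within 1 standard error of each other. After GC adjustment NUPR1 was still higher, ATF3 was at about the same level in both groups, and DDIT4 was lower in DU145-TFEB.

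NUPR1 (ENSG00000176046) lies on the minus strand at chr16:28532708-28539174 (GRCh38). Its normalized counts were 506, 338 and 449 in DU145-TFEB replicates 1, 2 and 3, and 54.9, 44.9 and 58 in DU145-vector replicates 1, 2 and 3. All DU145-TFEB libraries were thus above all DU145-vector libraries, with a gap of 280 normalized counts between the lowest of the former and the highest of the latter. The mean level of 431 ± 85.7 (SD, n = 3) in DU145-TFEB was 8.19 times that of 52.6 ± 6.86 (SD, n = 3) in DU145-vector. On the scale of log2(normalized count + 1) the difference was 3.0 (SE 0.18). By log2 fold change NUPR1 had rank 19 from the top of 10542, with 0.171% of the genes above it. This rank is part of what led to its choice.

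These values came from 371 to 481 reads per library in DU145-TFEB and from 46 to 58 in DU145-vector. The coefficient of variation was 19.9% in DU145-TFEB, where counting error alone would give 4.83%, and 13.1% in DU145-vector, where counting error would give 13.7%. The spread of NUPR1 thus exceeded counting error among the DU145-TFEB libraries, of which replicate 2 was the lowest, and not among the DU145-vector libraries. Leaving out any 1 library gave log2 fold changes from 2.87 to 3.16.

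With a GC content of 52.2% over all its transcripts, NUPR1 fell in GC class 4, where the median log2 fold change was 0.53 and 3 genes had a higher value than NUPR1. GC-adjusted log2 levels were 8.80, 8.24 and 8.70 in DU145-TFEB and 5.97, 5.76 and 6.02 in DU145-vector. The groups again did not overlap, and the GC-adjusted log2 fold change was 2.66 (SE 0.16), at rank 34. The annotation lists for NUPR1 a transcript of 5491 bases with 50.3% GC, a protein-coding transcript of 550 bases with 61.1% GC, and a transcript of 598 bases with 60.7% GC that is labelled for nonsense-mediated decay. When the median over the transcripts of each gene was used for the trend, the value was 2.07. The reads cannot be divided among these transcripts here.

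DDIT4 (ENSG00000168209), the mTORC1 brake also known as REDD1, lies on the plus strand at chr10:72273920-72276036. Its normalized counts were 1594, 1572 and 1568 in DU145-TFEB and 1390, 1034 and 1283 in DU145-vector. The groups did not overlap. The coefficient of variation was 0.889% among the DU145-TFEB libraries and 14.8% among the DU145-vector libraries, and DU145-vector replicate 2 was the lowest library of all. The mean was 1578 ± 14.0 (SD, n = 3) in DU145-TFEB and 1236 ± 183 (SD, n = 3) in DU145-vector, which gives a fold of 1.28 and a log2 fold change of 0.36 (SE 0.11). Without DU145-vector replicate 2 the log2 fold change was 0.24. Of the genes in its GC class 5, which had a median of 0.67, 89.4% had a higher log2 fold change than DDIT4. GC-adjusted log2 levels were 10.12, 10.07 and 10.22 in DU145-TFEB and 10.90, 10.67 and 10.76 in DU145-vector, so that the direction turned and the GC-adjusted log2 fold change was -0.64 (SE 0.08). The antisense gene DDIT4-AS1 overlaps DDIT4 at chr10:72274915-72275980. As strand-specific counting is not given in the sources used here, reads of the pair cannot be told apart.

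ATF3 (ENSG00000162772), a bZIP factor that represses and activates stress genes, lies on the plus strand at chr1:212565334-212620777. Its normalized counts were 652, 682 and 640 in DU145-TFEB and 551, 488 and 557 in DU145-vector, and the groups did not overlap. The mean was 658 ± 22.0 (SD, n = 3) in DU145-TFEB and 532 ± 38.4 (SD, n = 3) in DU145-vector, which gives a fold of 1.24 and a log2 fold change of 0.31 (SE 0.09). The median of its GC class 3 was -0.42, and 34.8% of the genes there had a higher log2 fold change. GC-adjusted log2 levels were 9.22, 9.31 and 9.25 in DU145-TFEB against 9.23, 9.11 and 9.22 in DU145-vector. The groups then overlapped, and the GC-adjusted log2 fold change was 0.07 (SE 0.085).

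**Figure D1:**
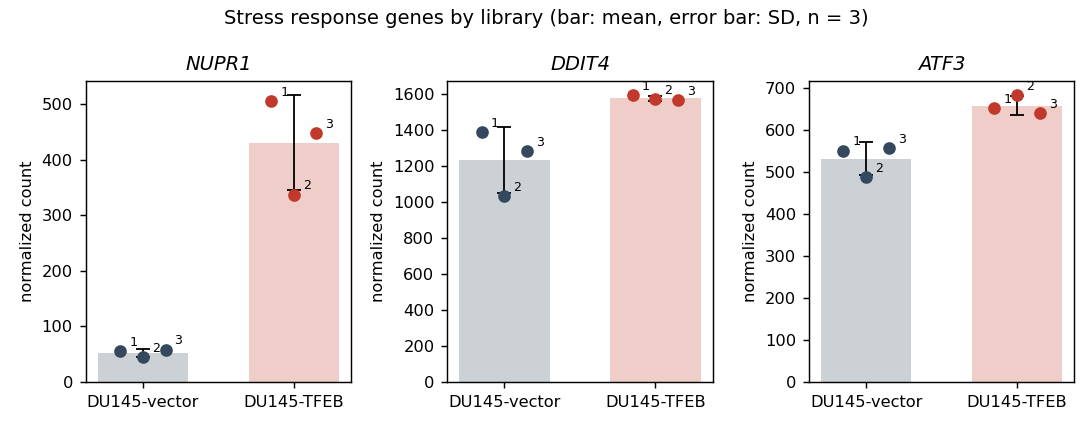
Normalized counts of NUPR1, DDIT4 and ATF3 in each library on axes that start at 0, with the replicate number at each point, the group mean as a bar and the SD as an error bar (n = 3). NUPR1 lay at 338 to 506 in DU145-TFEB against 44.9 to 58 in DU145-vector, whereas for DDIT4 and ATF3 the groups came close without overlapping.

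All 3 genes had groups that did not overlap, with DU145-TFEB higher, which held for 47.3% of the listed genes. The median log2 fold change over the 3 genes was 0.36, beside -0.36 over all listed genes. After GC adjustment these medians were 0.07 and -0.23. NUPR1 was above a log2 fold change of 1.5, as were 2.54% of the listed genes with a limma adjusted p below 0.05. DDIT4 and ATF3 were not.

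Per kilobase of gene length, the order of the levels was the same in both groups, with DDIT4 highest, ATF3 next and NUPR1 lowest. The level of DDIT4 was 767 normalized counts per kilobase in DU145-TFEB and 600 in DU145-vector, and that of ATF3 was 163 and 132. For NUPR1 it was 75.9 and 9.27. In DU145-vector cells 92.8% of the listed genes had a higher level per kilobase than NUPR1, and in DU145-TFEB cells 53.2%. The order depends on the length taken. If all reads came from the 550-base transcript, NUPR1 would have 783 normalized counts per kilobase in DU145-TFEB and 95.6 in DU145-vector. On the same basis, DDIT4 would have 903 and 707 from its 1748-base transcript, still above NUPR1 in both groups.

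**Figure D2:**
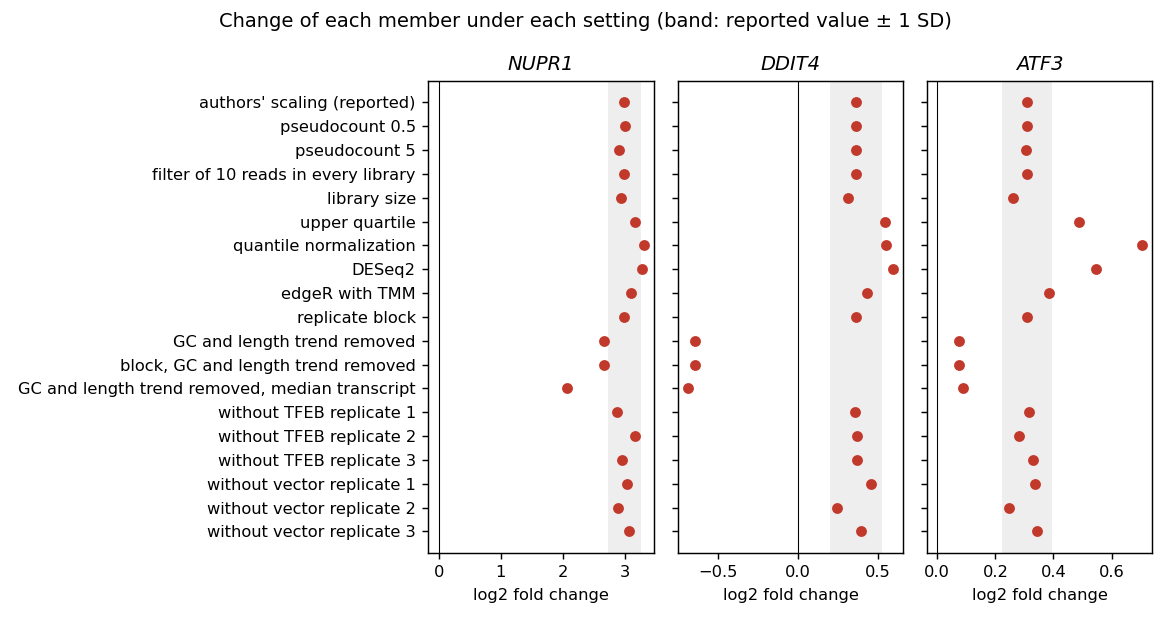
Log2 fold change of NUPR1, DDIT4 and ATF3 under each normalization and with each library left out, with the reported value ± 1 SD between replicates as a grey band. NUPR1 stayed between 2.07 and 3.31, while DDIT4 went from 0.59 to -0.69 and ATF3 from 0.71 to 0.07.

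**Figure D3:**
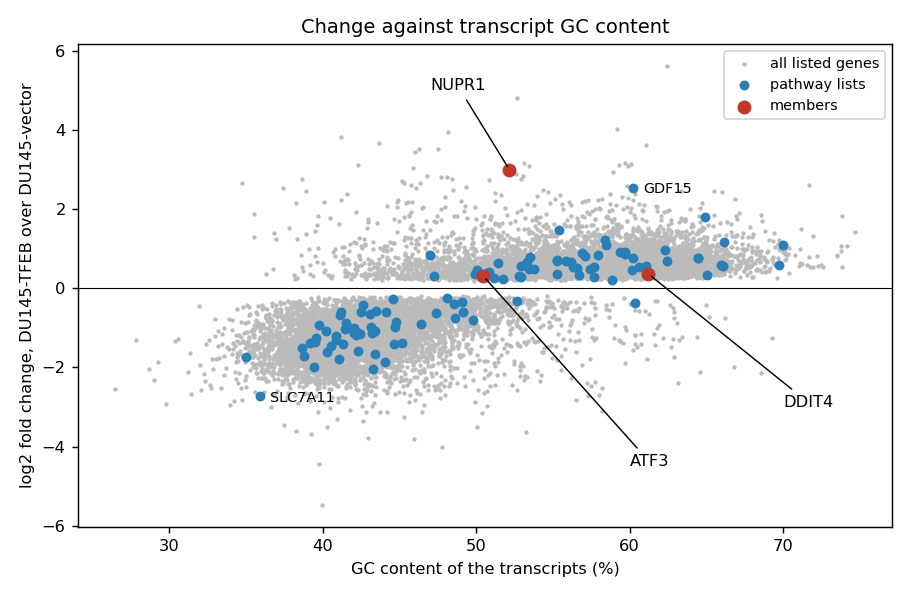
Log2 fold change against the GC content of the transcripts for all listed genes (grey), the genes of the 9 pathway lists (blue) and NUPR1, DDIT4 and ATF3 (red). The band around 0 is nearly empty, with 3 of the listed genes at an absolute log2 fold change below 0.2. Every listed gene had a deposited adjusted p below 0.05. In the GC class of NUPR1, 3 genes lay above it.

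The 5 genes whose profile over the 6 libraries was most like that of NUPR1 were found among 8616 genes by the root mean square difference of log2 levels after each gene's DU145-vector mean had been subtracted. They were PGM5, at a difference of 0.214, GDF15 at 0.331, IFITM3 at 0.350, CD22 at 0.429 and MB at 0.513. The next gene was at 0.660 and the median gene at 2.34. PGM5, a relative of phosphoglucomutase, had a log2 fold change of 2.82 and a GC-adjusted value of 3.08. For IFITM3, an interferon-induced membrane protein, the values were 2.58 and 1.83, though IFITM genes are near-identical and may share reads. CD22, a lectin best known from B cells, had 2.43 and 1.91, and MB (myoglobin) 2.35 and 1.62. GDF15, a secreted stress cytokine, also belongs to the lists of ATF4 targets below. Its normalized counts were 549, 407 and 471 in DU145-TFEB and 86.3, 69.2 and 87 in DU145-vector. As for NUPR1, the groups lay far apart and DU145-TFEB replicate 2 was the lowest of its group. The same held for PGM5, IFITM3, CD22 and MB. All 5 genes were picked for a profile like that of NUPR1, so this likeness follows from the choice.

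**Figure D4:**
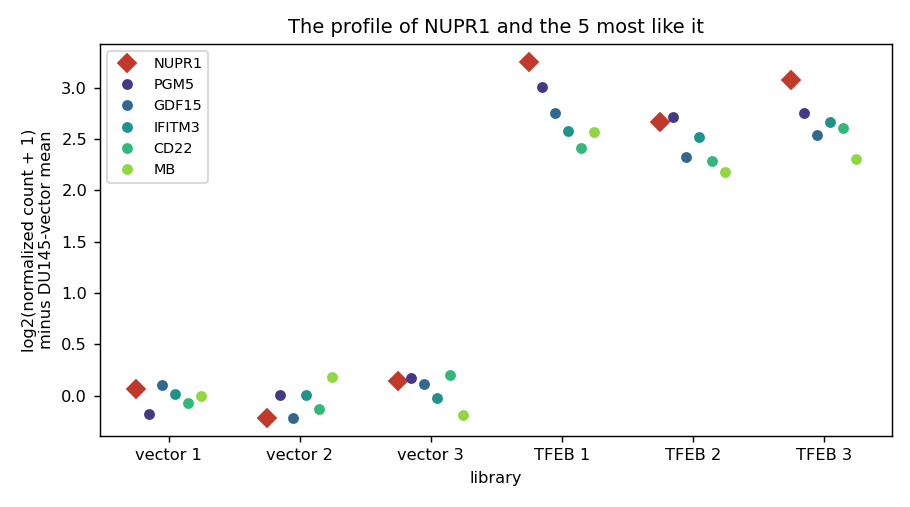
Profile of NUPR1 (diamonds) and the 5 genes most like it, as log2(normalized count + 1) minus the gene's mean over the DU145-vector libraries, for each of the 6 libraries. All points of the DU145-TFEB libraries lay above 2, and NUPR1 was highest in replicates 1 and 3.

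Within 500 kb of NUPR1, 11 other genes were listed, and all 11 had a positive log2 fold change, with a median of 1.07 and a range from 0.21 to 1.48, below that of NUPR1. These neighbours had a median GC content of 59.1%. After GC adjustment their median was 0.28, and 6 of the 11 were positive. Among all listed genes with a GC content, 3499 were positive and 7038 negative after GC adjustment, with a median of -0.23. Before adjustment the median of all listed genes was -0.36, and 47.6% were called higher. Around DDIT4, 5 of 6 listed neighbours were higher, with a median of 0.78 and a GC-adjusted median of 0.64, where 4 of the 6 were positive. Around ATF3, 4 of 11 were higher and 7 lower, with a median of -0.97 that was -0.18 after GC adjustment.

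Promoter windows from 250 bases before to 50 bases after each start were taken from RefSeq (GRCh38.p14), where 9 of the 10 named genes, all but NUPR1, and 105 genes of the pathway lists were found among 27305 genes. The exact core of the C/EBP-ATF element, TGATGCAA on either strand, was in the windows of 1.08% of all genes and of 8.57% of the list genes. With TGATGNAA, which includes the former, the shares were 4.46% and 12.4%. The lists were written from genes known for ATF4 control, so the higher share describes the lists and not these libraries. Matches in the named genes are shown because they mark where ATF4 partners or TFEB-type factors could read these promoters. Of the 9 named genes with a window, 1 (CHAC1) had TGATGCAA and 3 had TGATGNAA. The C/EBP-ATF matches of ASNS and ATF3 are of this looser form only. Capitals mark the match, and each sequence is given on the strand of its gene.
CHAC1 C/EBP-ATF element, opposite strand, chr15:40953252-40953279: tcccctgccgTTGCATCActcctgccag
ASNS C/EBP-ATF element, chr7:97872459-97872486: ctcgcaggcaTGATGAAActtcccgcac
ATF3 C/EBP-ATF element, chr1:212565206-212565233: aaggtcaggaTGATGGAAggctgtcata
PPP1R15A cyclic AMP response element, chr19:48872353-48872380: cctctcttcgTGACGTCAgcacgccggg
ATF4 E-box, chr22:39520467-39520492: aggagacggtCACGTGgtcgcggcgg
The ATF3 match starts at position -191 from the upstream of its RefSeq starts. The cyclic AMP response element TGACGTCA was in the windows of 2.25% of all genes and the E-box CACGTG in those of 8.77%. In the windows of DDIT4, DDIT3, TRIB3 and SESN2 no match to the searched motifs was found. The CLEAR core TCACGTGA, the letters that TFEB binds in lysosomal promoters, was in 1.18% of all genes and in 0 of the 9 named genes with a window, which do not include NUPR1.

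Of the list genes with TGATGCAA in the window, 7 had a row in the table, and they are shown because their changes went both ways: 4 were higher and 3 lower in DU145-TFEB.
CEBPG, chr19:33374061-33374088: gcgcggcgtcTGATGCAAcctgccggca
PPP1R15B, chr1:204412027-204412054: ccgccccggcTGATGCAAcctcacgctg
HERPUD1, opposite strand, chr16:56931956-56931983: acgcggcgggTTGCATCAgcccgtgccc
SLC1A5, chr19:46784894-46784921: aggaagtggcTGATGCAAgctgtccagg
GOT1, opposite strand, chr10:99430805-99430832: attgcattggTTGCATCAttctcggcag
JDP2, chr14:75427996-75428023: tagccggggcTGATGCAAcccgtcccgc
TSC2, chr16:2047865-2047892: ccccgtcacgTGATGCAAggatcgccgg
CEBPG, which forms dimers with ATF4, had a log2 fold change of -1.02, PPP1R15B, which brings a phosphatase to eIF2 without stress, -1.09, and HERPUD1, a protein of endoplasmic reticulum disposal, -0.24. Those of SLC1A5 (0.22), GOT1 (0.24), JDP2 (0.35) and TSC2 (0.55) were positive, and after GC adjustment TSC2 at 0.06 was the only positive value of the 7. The CLEAR core was in 3.81% of the list genes with a window, beside 1.18% of all genes. It was held by 3 list genes with a row, SLC36A1, TSC2 and BBC3. All 3 were higher before GC adjustment, where 47.6% of all listed genes were called higher.
SLC36A1 CLEAR core, chr5:151447584-151447611: ggcggtgggaTCACGTGAtgaggtccgg
TSC2 CLEAR core, chr16:2047860-2047887: tgcggccccgTCACGTGAtgcaaggatc
BBC3 CLEAR core, chr19:47232883-47232910: tggggagattTCACGTGAgatatagatt
In TSC2, the start of the C/EBP-ATF match overlaps the end of the CLEAR core. The GC-adjusted values of SLC36A1 and BBC3 were -0.01 and -0.28. The ER stress response element was in 0.0916% of all genes and in 5 list genes.

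To place NUPR1 among its pathway, 9 lists with 143 genes were examined, of which 107 had a row. With limma, 53 of these (49.5%) were called higher and 53 lower, close to the 47.6% and 52.4% of all listed genes. In the lists below, the counts of genes that rose or fell are such calls. They are to be read beside these same shares and were not tested. JUN, at a log2 fold change of 0.34 and an adjusted p of 0.0521 with limma, was not called. Beyond 1.5 on the log2 scale, 2 genes (GDF15 and JUNB) were higher and 11 lower, where 2.54% and 16.5% of all listed genes were. The list genes called higher had a median GC content of 57.1% and those called lower 42.4%, next to 57.5% and 42.6% for all genes. After GC adjustment 15 were called higher, 45 lower and 47 were not called, while 18.0% of all genes were called higher and 48.0% lower. The median over the 107 genes was 0.22 before and -0.17 after GC adjustment. Those of all listed genes were -0.36 and -0.23, and the list medians below are to be read beside these values.

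**Figure D5:**
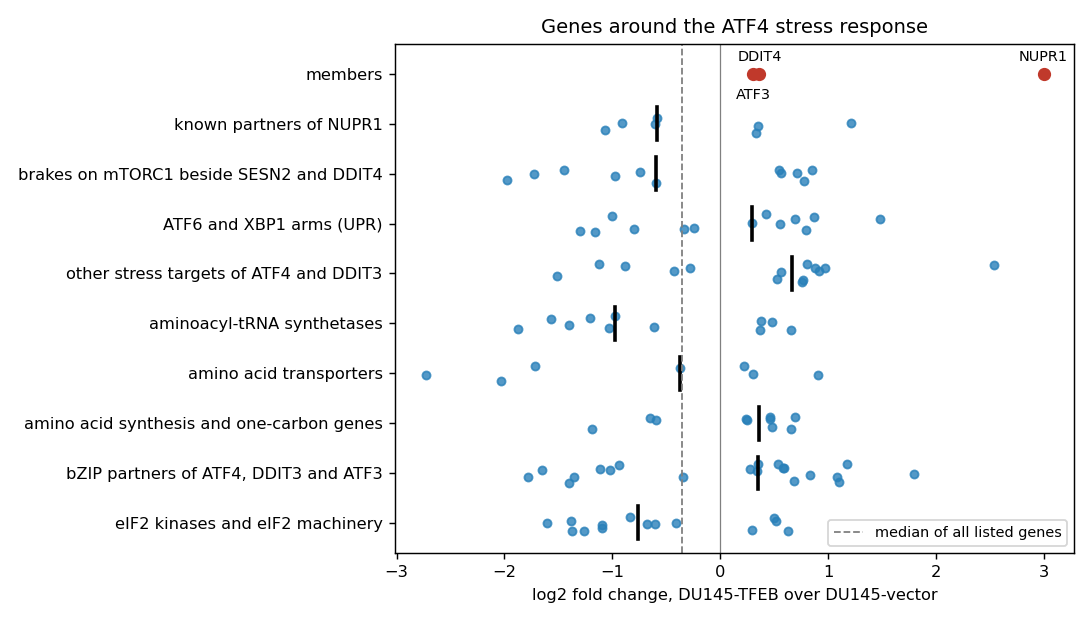
Log2 fold changes of the genes with a row on each of the 9 pathway lists, one point per gene, beside those of NUPR1, DDIT4 and ATF3. Each list spread to both sides of 0, and NUPR1 lay above every list gene, the nearest being GDF15 at 2.54.

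Among the eIF2 kinases and the eIF2 machinery, 4 of 14 listed genes rose and 10 fell, with a median of -0.76 and of -0.10 after GC adjustment. Of all listed genes, 47.6% were called higher and 52.4% lower. The kinases EIF2AK2 (PKR), EIF2AK3 (PERK) and EIF2AK4 (GCN2) had log2 fold changes of -1.27, -1.10 and -0.84, which shrank to -0.07, -0.31 and -0.13 with GC adjustment. DNAJC3, an inhibitor of these kinases, was at -1.61 and GC-adjusted at -0.63. The eIF2 subunits EIF2S1 and EIF2S2 fell to log2 fold changes of -1.39 and -1.37 (GC-adjusted -0.32 and -1.16). EIF2B5, the catalytic subunit of the exchange factor that recharges eIF2, rose by 0.63 and by 0.46 with GC adjustment. For EIF2B4, of the same factor, 0.50 turned to -0.0010 and for GCN1, the ribosome-bound activator of GCN2, 0.52 became 0.13, or -0.29 with the median over transcripts.

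Of the bZIP factors that pair with ATF4, DDIT3 or ATF3, 11 of 20 rose and 8 fell, with a median of 0.35 that turned to -0.22 after GC adjustment. JUNB, an AP-1 subunit, had normalized counts of 1281, 1535 and 1306 in DU145-TFEB and of 468, 314 and 418 in DU145-vector, a log2 fold change of 1.79 (SE 0.15). The groups did not overlap, and the GC-adjusted value was 0.68. CEBPB rose by 1.17 and was at 0.03 with GC adjustment, and CEBPD, at 1.09, turned to -0.11. ATF2, NFE2L2 (the oxidative stress factor NRF2) and ATF6 (an endoplasmic reticulum stress sensor) fell, with log2 fold changes of -1.78, -1.65 and -1.40 and GC-adjusted values of -0.87, -0.95 and -0.40.

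Among the genes of amino acid synthesis and one-carbon metabolism, 7 of 10 rose and 3 fell, where 47.6% and 52.4% of all listed genes did. The median of the list was 0.36, or -0.19 after GC adjustment. PHGDH, the first enzyme of serine synthesis, had 7584, 8707 and 7404 normalized counts in DU145-TFEB and 5085, 4734 and 5225 in DU145-vector. Its log2 fold change was 0.65 and GC-adjusted 0.25, but -0.05 with the median over transcripts. PYCR1 of proline synthesis and SHMT2 of mitochondrial serine use, at 0.69 and 0.48, turned to -0.31 and -0.27. MTHFD2 and ALDH1L2 of the mitochondrial folate pathway fell, at -0.65 and -1.19, and were at 0.02 and -0.23 with GC adjustment. CTH of cysteine synthesis was at -0.60 and GC-adjusted at -0.31, or 0.04 with the median over transcripts, and it lost its call with quantile normalization, at -0.13.

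Amino acid transporters held the lowest value of all 107 genes, before GC adjustment that of SLC7A11. SLC7A11, the cystine importer of system xc, had normalized counts of 382, 298 and 502 in DU145-TFEB and of 2251, 3219 and 2305 in DU145-vector, a log2 fold change of -2.73 (SE 0.19) with a limma adjusted p of 3.98e-06. That p-value was computed on genes already selected by the deposited p-values of these same libraries. All DU145-TFEB libraries were far below the DU145-vector libraries, and the GC-adjusted value was -1.262. The lowest GC-adjusted value of the 107 genes, -1.264, was that of another transporter, and TARS was close at -1.256. The glutamine and neutral amino acid carriers SLC38A1 and SLC38A2 were at -2.03 and -1.71, with GC-adjusted values of -1.14 and -0.56. In all, 3 of 7 transporters rose and 4 fell, with a median of -0.37 and a GC-adjusted median of -0.64. SLC43A1 rose by 0.91 and was at 0.02 with GC adjustment, while SLC1A5 (0.22) and the lysosomal carrier SLC36A1 (0.30) turned to -0.64 and -0.01.

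Of the genes that charge tRNAs with amino acids and XPOT, which exports tRNAs, 4 of 11 rose and 7 fell, with a median of -0.97 and a GC-adjusted median of -0.17. TARS, EPRS and NARS had log2 fold changes of -1.87, -1.57 and -1.40 and GC-adjusted values of -1.26, -0.79 and -0.97. AARS, MARS and SARS rose by 0.65, 0.48 and 0.38. Their GC-adjusted values were 0.16, 0.10 and 0.11, and that of MARS was -0.02 with the median over transcripts.

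The other stress targets of ATF4 and DDIT3 formed the list with the highest median, at 0.66, where 9 of 14 rose and 5 fell. Of all listed genes, 47.6% were called higher and 52.4% lower. The GC-adjusted median of the list was 0.05. GDF15 led with a log2 fold change of 2.54 (SE 0.16) and a GC-adjusted value of 1.57, the highest of the 107 genes in both cases. Its limma adjusted p was 2.71e-06, on genes already selected by the deposited p-values of these same libraries. LONP1, a protease of the mitochondrial matrix, rose by 0.97 and had a GC-adjusted value of 0.01, and GADD45B, a growth arrest protein, turned from 0.92 to -0.01. CCPG1, a receptor for autophagy of the endoplasmic reticulum, and KLHL24 were at -1.51 and -1.12, or GC-adjusted at -0.26 and -0.27. ERO1A, the oxidase that drives disulfide formation, turned from -0.88 to 0.10.

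In the ATF6 and XBP1 arms of the unfolded protein response, 7 of 13 rose and 6 fell, with a median of 0.29 that turned to -0.20. CALR, the calcium-binding lectin chaperone calreticulin, had 24224, 24420 and 22921 normalized counts in DU145-TFEB and 8648, 8473 and 8476 in DU145-vector. Its log2 fold change was 1.48 (SE 0.06), and 0.78 with GC adjustment. PDIA4, a disulfide isomerase, rose by 0.80 and GC-adjusted by 0.25. CRELD2 rose by 0.87 and was at 0.01, or at -0.0011 with the median over transcripts. SEL1L, HSP90B1 (the chaperone GRP94) and DNAJB9 had log2 fold changes of -1.30, -1.16 and -1.0, with GC-adjusted values of -0.20, -0.44 and -0.42.

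Besides DDIT4, 11 other brakes on mTORC1 had a row, of which 5 rose and 6 fell, with a median of -0.59 and a GC-adjusted median of -0.22. TBC1D7, a subunit of the TSC complex, had 570, 571 and 620 normalized counts in DU145-TFEB and 353, 321 and 304 in DU145-vector. Its log2 fold change was 0.85 and rose to 1.25 with GC adjustment, whereas TSC1 was at -0.74 and -0.27, and TSC2 at 0.55 and 0.06. NPRL2 of the GATOR1 complex was at 0.71 and GC-adjusted at 0.06, and STK11 (LKB1) turned from 0.78 to -0.16. The AMPK catalytic subunits PRKAA1 and PRKAA2 were at -1.98 and -1.73, and SESN3, a relative of SESN2, at -1.45, with GC-adjusted values of -0.88, -0.22 and -0.32.

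Of the proteins known to bind or act with NUPR1, 3 of 7 rose and 4 fell, with a median of -0.58 and a GC-adjusted median of -0.20. IER3, an early response gene, had normalized counts of 1367, 1708 and 1591 in DU145-TFEB and of 676, 567 and 770 in DU145-vector, a log2 fold change of 1.22 (SE 0.13) that was 0.55 with GC adjustment. PTMA (prothymosin alpha), which has many pseudogenes that may share its reads, rose by 0.35 and was at 0.05, or -0.05 with the median over transcripts, and it lost its call with quantile normalization, at 0.13. RELB, an NF-kappaB subunit, turned from 0.33 to -0.73, and it lost its call without DU145-TFEB replicate 2 (0.24) or DU145-vector replicate 2 (0.20) and with library size scaling (0.28). RNF2, PAXIP1 and EP300, which act on chromatin, were at -1.07, -0.91 and -0.61, and GC-adjusted at -0.20, -0.38 and -0.26.

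The 15 list genes that were called higher after GC adjustment came from all lists but the transporters. Beside GDF15, TBC1D7, CALR, JUNB, IER3, EIF2B5, PHGDH and PDIA4, they were VLDLR (0.45), YARS (0.43), EIF2B3 (0.38), VEGFA (0.34), ALDH18A1 (0.26), STC2 (0.19) and HYOU1 (0.18). VLDLR, a lipoprotein receptor, had a log2 fold change of -0.28 before GC adjustment. NUPR1, at a GC-adjusted 2.66, was above each of them. In these bulk libraries, a change in the share of cells that express a gene and a change in the mRNA per cell cannot be told apart.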

How the data were processed

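The authors deposited 1 table for the 6 libraries (3 DU145-TFEB, 3 DU145-vector, grouped by their labels). Per the labels, the submitters' processing notes name CASAVA 1.8, HISAT2 2.1.0, edgeR and GRCh38, and the methods name DESeq2. The counting program, its annotation and its strand setting are not given in the sources used here. The deposited values are a normalized signal, that is, read counts divided by a size factor per library. The authors' group means, log2 fold changes and p-values in the table were not used, except to count how many of the deposited adjusted p-values were below 0.05, which were those of all 10542 listed genes. The libraries that are compared here thus also decided which genes are listed. Its positions equal those of GENCODE 29 for 10542 genes.

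The deposited signal was put on the scale of log2(normalized count + 1), and limma 3.58.1 (R 4.3.3), set to follow the mean-variance trend, was fitted over all listed genes, with Benjamini-Hochberg adjustment. Reads were recovered from the steps of the values (100% within 0.01 of a whole number) and tested with edgeR 4.0.16 and DESeq2 1.42.0 as alternatives. GC content came from the transcripts of GENCODE 29 (10537 genes). In each library, the deviation of the log2 level from the gene's mean over the 6 libraries was fitted by a loess curve (span 0.5) on GC content and length. This curve was subtracted from the log2 level, keeping the median deviation of the library. The genes named from each list were up to 3 rising and 3 falling with the largest change among those called with a mean normalized count of at least 100. Genes named beyond this, namely the eIF2 kinases, TSC1, TSC2, HERPUD1, CEBPG, PPP1R15B, GOT1, JDP2, BBC3, JUN and the further genes called after GC adjustment, were named after their values were seen. The members and lists were chosen with earlier results of these data known. The scripts were tested on simulated data, in which the changed genes were drawn without regard to GC content. That test could therefore not tell whether GC adjustment also removes true change that follows GC content.

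Libraries of the same group differed by a chi-square per gene from 3.0 to 27.6, beyond sampling noise, and between groups by 167 to 331. The labels do not say whether they were separate cultures. The study gives 3 independent experiments as the base of its statistics, without naming these libraries. The p-values may therefore measure only a technical spread. With 3 against 3, the smallest exact permutation p is 0.1. Alternatives covered the pseudocount (0.5 and 5), a filter of 10 reads in every library, other normalizations, the replicate block, GC adjustment and each library left out.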

Additional observations from a re-analysis of the deposited data

How the results depend on the processing

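NUPR1 was higher in DU145-TFEB under every alternative, from 2.07 to 3.31. Its log2 fold change was 3.31 with quantile normalization, 3.27 with DESeq2 and 2.66 with GC adjustment. DDIT4 and ATF3 had values of 0.54 and 0.49 with upper quartile scaling, 0.55 and 0.71 with quantile normalization and 0.59 and 0.55 with DESeq2, with medians of the 3 genes of 0.54, 0.71 and 0.59. These scalings also moved the median of all listed genes from -0.36 to -0.18, -0.03 and -0.11. With GC adjustment DDIT4 reversed to -0.64, ATF3 was at 0.074, the median of the 3 genes was 0.074, and 15 list genes were called higher instead of 53. With the median over the transcripts of each gene, an alternative chosen after seeing the data, the values were 2.07 for NUPR1, -0.69 for DDIT4, 0.089 for ATF3 and for the median, and 17 list genes. With GC adjustment EIF2B4 (-0.0010), CEBPD (-0.11), PYCR1 (-0.31), SHMT2 (-0.27), MTHFD2 (0.018), SLC36A1 (-0.013), SLC1A5 (-0.64), GADD45B (-0.013), ERO1A (0.097), STK11 (-0.16) and RELB (-0.73) reversed. With the median over transcripts GCN1 (-0.29), CEBPD (-0.071), PYCR1 (-0.28), PHGDH (-0.050), SHMT2 (-0.34), CTH (0.040), SLC36A1 (-0.17), SLC1A5 (-0.50), MARS (-0.024), ERO1A (0.13), CRELD2 (-0.0011), STK11 (-0.22), PTMA (-0.050) and RELB (-0.72) did. GC adjustment also ended the calls of 15 named genes that kept their direction, and the median over transcripts those of 9. CTH (-0.13) and PTMA (0.13) lost theirs with quantile normalization and RELB (0.28) with library size scaling. The cause was not tested. Same-numbered libraries had correlations of -0.06, -0.42 and -0.35 between their deviations, no library correlated best with its own number, and the numbers do not pair them. With the replicate block 51 list genes were called higher and 53 lower, where SLC1A5 and RELB lost their calls, and NUPR1, DDIT4 and ATF3 stayed at 3.0, 0.36 and 0.31. The replicate block with GC adjustment gave 2.66, -0.64, 0.074, a median of 0.074, 15 list genes and the same reversals as GC adjustment alone. Leaving out single libraries gave 51 to 54 list genes called higher and 50 to 53 lower, and for ATF3 values from 0.25 to 0.34. Depth limits NUPR1 in the DU145-vector libraries, where it had at most 58 reads. Every share given of listed genes holds for this selected list only.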
